A study of Mus musculus with 8 samples.

Results

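The D cyclins (Ccnd1, Ccnd2 and Ccnd3), the kinases they activate (Cdk4 and Cdk6), the CDK inhibitors Cdkn1a, Cdkn1b, Cdkn2c and Cdkn2d, and Rb1, the main substrate of these kinases, were examined by RNA-seq in whole BM of AML mice with decreasing Gab2 dosage. They were chosen by name as the core of the G1 control of the cell cycle, with earlier results of these data known. All 10 are among the 13305 genes of the deposited count table. Gab2 is a docking protein that links activated receptor tyrosine kinases to downstream signaling. All 8 mice were C57BL/6N and shared Mx1-Cre, loss of 1 Dnmt3a allele (Dnmt3a+/-) and Flt3ITD/ITD, and they differed in Gab2: 3 were Gab2+/+ (AML WT), 2 were Gab2+/- (AML HET) and 3 were Gab2-/- (AML KO). The Gab2 null allele carries a neomycin cassette in place of several exons. The Mx1 promoter is interferon-inducible, and per the study's text the floxed Dnmt3a allele was recombined by spontaneous Cre expression, without pIpC. Every group therefore carries the same leukemia alleles, and the comparisons are within AML. The age of the sequenced mice is not given in the sources used here.

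D cyclins are the growth factor-dependent cyclins: receptor signaling raises their synthesis, and together with CDK4 or CDK6 they phosphorylate Rb, which releases E2F factors and permits entry into S phase. INK4 proteins (here Cdkn2c, p18, and Cdkn2d, p19) bind CDK4 and CDK6 and block cyclin binding, while CIP/KIP proteins (Cdkn1a, p21, and Cdkn1b, p27) mainly inhibit CDK2 complexes and also assemble with cyclin D complexes. In blood cells cyclins D2 and D3 and the kinase CDK6 are the best-studied members, and D1 is better known from epithelial and mesenchymal tissues. Much of the control of these proteins is by degradation and phosphorylation, which mRNA counts do not measure. In whole BM a lower mRNA level can come from fewer cells of an expressing type or from less RNA per cell, and these cannot be told apart here.

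The libraries held 28009258 to 39266815 counts, and all pairs of libraries differed far beyond counting error (chi-square per gene of 20.3 to 398), so that no library was a duplicate of another. AML WT replicate 1 and AML KO replicate 1 stood apart from the other mice, as they had the highest value of all 8 mice at 28.5% and 28.7% of genes. Gab2 CPM (counts scaled to TMM-normalized library sizes) were 93.9, 68.5 and 61.6 in AML WT, 55.8 and 50.8 in AML HET, and 35.0, 47.2 and 40.2 in AML KO mice, so the order of the groups followed the labels without overlap. In AML KO against AML WT the fit gave a log2 fold change of −0.87 (SE 0.18, adjusted p = 0.0420, edgeR's quasi-likelihood test). AML KO mice thus kept 0.546 of the mean AML WT level, and gene counts do not show which exons these reads cover. Neither single step was called: −0.49 in AML HET against AML WT (adjusted p = 0.990, edgeR) and −0.39 in AML KO against AML HET (adjusted p = 0.847, edgeR). Markers of erythroid, megakaryocytic, neutrophil, monocyte, macrophage, lymphoid, stem cell and stromal cells were among the genes of the table, and none of these had a count of 0 in any mouse. The table leaves out genes with few counts, so this says little about which cells were present. Of the marker lists, Calcr, Dcstamp, Oscar, Ms4a1 and Fcer1a were absent from it.

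In AML KO compared with AML WT BM, 1 of the 10 genes passed an adjusted p of 0.05, and it was Ccnd1, which fell. Across all genes 2.09% passed, 0.323% as lower and 1.77% as higher in AML KO. Without adjustment 4 of the 10 genes had a p under 0.05, against 17.7% of all genes: Ccnd1 and Rb1 were lower (7.88% of all genes were lower), and Ccnd3 and Cdkn2d were higher (9.77% were higher). The groups did not overlap at 2 of the 10 genes, Ccnd1 (lower, as 9.83% of all genes were) and Ccnd3 (higher, as 12.3% were), against 22.1% of all genes in either direction. The median log2 fold change was −0.03 over the 10 genes and −0.02 over all genes tested, with 5 positive and 5 negative values. The median absolute log2 fold change was 0.35 over the 10 genes and 0.23 over all genes.

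**Figure D1:**
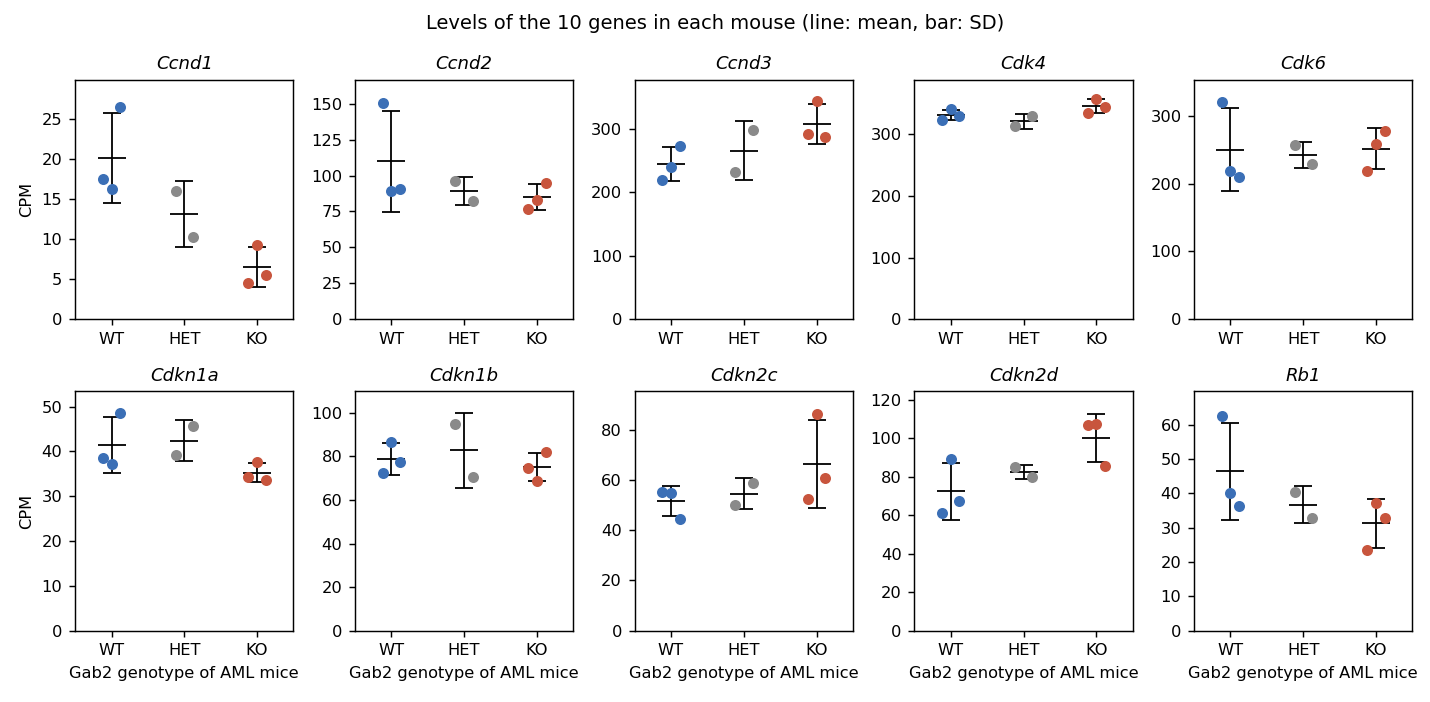
Level of each gene (CPM, linear axes from 0) in every AML WT (blue), AML HET (grey) and AML KO (red) mouse, with the mean (line) and SD (bar). Only for Ccnd1 do the 3 groups follow each other without overlap, from 16.2 to 26.5 CPM in AML WT down to 4.55 to 9.28 CPM in AML KO mice. The gaps on both sides of its AML HET values are within counting error, and the share of all genes with this order was not computed. Cdk4 and Cdk6 have nearly equal means in all groups.

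Ccnd1 (ENSMUSG00000070348), which encodes cyclin D1, lies on the minus strand of chromosome 7 from 144929930 to 144939920 (GRCm38), 47.6 Mb from Gab2 on the same chromosome. It had 17.5, 16.2 and 26.5 CPM in the AML WT mice, 15.99 and 10.2 CPM in the AML HET mice, and 4.55, 9.28 and 5.54 CPM in the AML KO mice. All AML KO values lay below all AML HET values, and these below all AML WT values. Of all genes, 11% had AML KO below AML HET without overlap and 8.61% had AML HET below AML WT. The share of all genes with both was not computed. The gap between AML WT replicate 2 and AML HET replicate 1 was within counting error, since the exact 95% Poisson intervals (14.8 to 17.7 and 14.6 to 17.5 CPM, counting error only) overlapped. The gap between AML HET replicate 2 (9.11 to 11.4 CPM) and AML KO replicate 2 (8.18 to 10.5 CPM) was within counting error as well. The AML KO intervals did not reach those of the AML WT mice, of which the lowest began at 14.8 CPM.

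AML WT BM had a mean Ccnd1 level of 20.1 ± 5.62 CPM (SD, n = 3), AML HET BM of 13.1 ± 4.09 CPM (SD, n = 2) and AML KO BM of 6.46 ± 2.497 CPM (SD, n = 3), which is 3.11-fold lower than in AML WT. In the edgeR fit, AML KO differed from AML WT by a log2 fold change of −1.64 (SE 0.31, 95% interval −2.34 to −0.94, adjusted p = 0.0294, quasi-likelihood test). An exact permutation test of the mean log2 CPM gave p = 0.1 (two-sided), the smallest that 3 mice against 3 allow. This call rested on few mice: the adjusted p (edgeR) rose above 0.05 without AML WT replicate 1 (0.0519), 2 (0.0845) or 3 (0.0658) and without AML KO replicate 1 (0.0855) or 3 (0.141), while the log2 fold change stayed between −1.99 and −1.38 over the 8 fits that left out 1 mouse each. Per Gab2 allele lost, the log2 level of Ccnd1 fell by 0.82 (SE 0.15, 95% interval −1.15 to −0.48, adjusted p = 0.0194, edgeR). It was the only one of the 10 genes called in this slope fit, where 2.64% of all genes were called, 0.526% with a negative slope. The slope call was lost without AML WT replicate 3 (adjusted p = 0.0651, edgeR), AML KO replicate 1 (0.0659) or AML KO replicate 3 (0.0865), at slopes of −0.96 to −0.71 over the 8 fits.

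Against AML WT, the AML HET mice had a log2 fold change of −0.62 for Ccnd1 (SE 0.34, 95% interval −1.39 to 0.16, adjusted p = 0.990, edgeR). In AML KO against AML HET it was −1.02 (SE 0.34, 95% interval −1.78 to −0.26, adjusted p = 0.745, edgeR). Neither step passed on its own. None of the 10 genes was called in either comparison by edgeR or DESeq2, where 0.0225% and 0% of all genes were called by edgeR (0 of 13305 in AML KO against AML HET, with 780 at an unadjusted p under 0.05 and 77 called by DESeq2). Between AML HET and AML WT, 0 of the 10 genes had an unadjusted p under 0.05 (2.47% of all genes). Between AML KO and AML HET 1 had, Ccnd1, which was lower (5.86% of all genes had, 2.34% as lower).

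Ccnd2 (ENSMUSG00000000184, chromosome 6, 127125160 to 127152190, minus strand) encodes cyclin D2. Its levels were 151, 89.0 and 90.3 CPM in AML WT, 96.3 and 82.4 CPM in AML HET, and 77.0, 82.8 and 94.8 CPM in AML KO mice. AML WT replicate 1 stood above all others, and the other 7 mice lay between 77.0 and 96.3 CPM with overlapping groups. Relative to AML WT, its log2 fold change in AML KO was −0.37 (SE 0.21, 95% interval −0.84 to 0.09, adjusted p = 0.347, edgeR), and −0.09 without AML WT replicate 1.

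Ccnd3 (ENSMUSG00000034165, chromosome 17, 47505051 to 47599691, plus strand) encodes cyclin D3. It had 220.1, 240.4 and 274 CPM in AML WT, 232 and 298 CPM in AML HET, and 292, 343 and 287 CPM in AML KO mice. The 3 AML KO mice all lay above the 3 AML WT mice (two-sided p = 0.1 in an exact permutation test, which cannot give less), and the AML HET mice spanned both groups. Its log2 fold change of 0.33 (SE 0.14, 95% interval 0.01 to 0.65, unadjusted p = 0.0454) did not pass the adjustment (adjusted p = 0.275, edgeR).

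Levels of different genes can be compared only per length, so CPM were divided by the length of all annotated exons of each gene in kilobases. On this scale Ccnd3 was the most abundant D cyclin in every mouse, followed by Ccnd2 and then Ccnd1. Of the summed D cyclin level, Ccnd3 made up 56.0%, 68.0% and 67.2% in AML WT, 66.0% and 75.7% in AML HET, and 78.4%, 78.4% and 74.4% in AML KO mice. Its share was higher in all AML KO mice than in any AML WT mouse, while AML HET replicate 2 lay above AML KO replicate 3. The 3 shares are parts of 1 sum, so they depend on each other and restate the levels given above. Ccnd1 made up 9.65 ± 2.15% (SD) of the sum in the 3 AML WT mice, 6.64 ± 2.58% in the 2 AML HET mice and 2.97 ± 0.874% in the 3 AML KO mice, and its share did not overlap between AML KO and AML WT either. With the length of the longest transcript in place of all exons these Ccnd1 shares were 6.17%, 4.14% and 1.79%. For Ccnd2 the shares were 26.6 ± 8.002%, 22.5 ± 4.26% and 19.9 ± 2.69%, with overlapping groups. The sum of the 3 D cyclins lay between 40.1 and 49.9 CPM per kilobase in all 8 mice, again with overlapping groups. The ratio of Ccnd2 to Ccnd1 was 4.31, 2.75 and 1.70 in AML WT, 3.01 and 4.04 in AML HET, and 8.47, 4.46 and 8.56 in AML KO mice. In AML KO replicate 2 this ratio lay close to that of AML WT replicate 1, and that mouse also had the highest Ccnd1 level of its group.

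**Figure D2:**
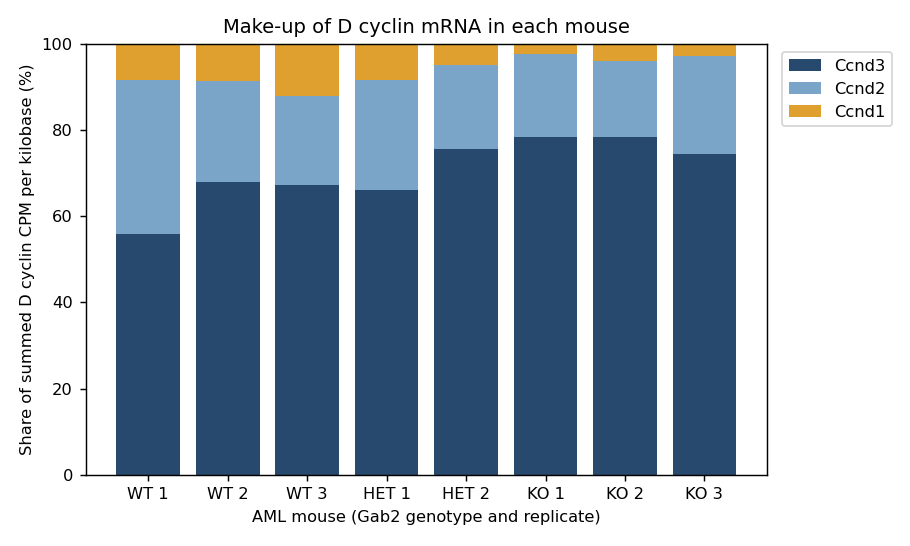
Share of Ccnd3 (dark blue), Ccnd2 (light blue) and Ccnd1 (orange) in the summed D cyclin level per kilobase (vertical axis, %), with 1 bar per mouse. The Ccnd1 segment shrinks from 8.29% to 12.1% in AML WT to 2.28% to 3.95% in AML KO mice, and Ccnd3 fills most of the bar throughout.

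Cdk4 (ENSMUSG00000006728, chromosome 10, 127063530 to 127067920, plus strand) was the most evenly expressed of the 10 genes. Its levels were 324, 341 and 330.2 CPM in AML WT, 313 and 330 CPM in AML HET, and 335, 357 and 344 CPM in AML KO mice. The AML KO mice overlapped with AML WT and not with AML HET. Its log2 fold change in AML KO against AML WT was 0.06 (SE 0.10, 95% interval −0.17 to 0.29, adjusted p = 0.765, edgeR), an interval that leaves room for modest changes in either direction. Its biological coefficient of variation, 11.3%, was among the lowest of all genes (percentile 0.346), while that of Ccnd1, 27.1%, was at percentile 81.9. The median was 15.996% over the 10 genes and 17.9% over all genes.

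Cdk6 (ENSMUSG00000040274, chromosome 5, 3341485 to 3531008, plus strand), the other partner kinase of the D cyclins, had 321, 219 and 210.2 CPM in AML WT, 257 and 229 CPM in AML HET, and 219, 259 and 278 CPM in AML KO mice. AML WT replicate 1 was again the highest of the 8. The groups overlapped, with a log2 fold change of 0.01 (SE 0.18, 95% interval −0.38 to 0.40, adjusted p = 0.979, edgeR) whose sign changed with the mice left out (−0.10 to 0.22). Of the summed Cdk4 and Cdk6 level per kilobase, Cdk6 made up 14.9 ± 3.34% (SD) in the 3 AML WT mice, 15.0 ± 1.47% in the 2 AML HET mice and 14.5 ± 1.31% in the 3 AML KO mice.

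Of the INK4 inhibitors, Cdkn2d (ENSMUSG00000096472, chromosome 9, 21288410 to 21291407, minus strand) had the smaller p. It had 61.1, 89.1 and 67.2 CPM in AML WT, 85.2 and 80.0 CPM in AML HET, and 107, 108 and 85.7 CPM in AML KO mice. AML KO replicate 3 lay below AML WT replicate 2, so that the groups overlapped, and all AML KO mice lay above both AML HET mice. The gap between AML KO replicate 3 and AML HET replicate 1 was smaller than the counting error (2.13% at the lowest count). A log2 fold change of 0.47 (SE 0.16, 95% interval 0.10 to 0.83, unadjusted p = 0.0175) did not pass the adjustment (adjusted p = 0.217, edgeR), nor did its slope of 0.23 per Gab2 allele lost (adjusted p = 0.156, edgeR).

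Cdkn2c (ENSMUSG00000028551, chromosome 4, 109660880 to 109667190, minus strand) had 55.2, 54.7 and 44.5 CPM in AML WT, 50.2 and 58.9 CPM in AML HET, and 52.2, 86.0 and 60.7 CPM in AML KO mice. A single mouse, AML KO replicate 2, stood above the others, and the groups overlapped. Its log2 fold change in AML KO was 0.36 (SE 0.19, 95% interval −0.06 to 0.79, adjusted p = 0.331, edgeR), and 0.13 without that mouse.

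Of the CIP/KIP inhibitors, Cdkn1a (ENSMUSG00000023067, chromosome 17, 29090976 to 29100727, plus strand), a p53 target, had 38.6, 37.1 and 48.7 CPM in AML WT, 39.2 and 45.7 CPM in AML HET, and 34.3, 37.6 and 33.7 CPM in AML KO mice. The AML KO mice lay below both AML HET mice and overlapped with AML WT. AML KO against AML WT gave a log2 fold change of −0.24 (SE 0.14, 95% interval −0.56 to 0.08, adjusted p = 0.377, edgeR).

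Cdkn1b (ENSMUSG00000003031, chromosome 6, 134920400 to 134925510, plus strand) ranged from 68.9 to 94.98 CPM over the 8 mice, with group means of 78.8 ± 7.29 CPM (SD, 3 AML WT mice), 82.8 ± 17.2 CPM (2 AML HET mice) and 75.2 ± 6.57 CPM (3 AML KO mice). The lowest value was in an AML KO mouse and the highest in an AML HET mouse, and all groups overlapped. Its log2 fold change in AML KO against AML WT was −0.07 (SE 0.14, 95% interval −0.39 to 0.26, adjusted p = 0.816, edgeR).

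Rb1 (ENSMUSG00000022105, chromosome 14, 73183673 to 73325822, minus strand) encodes the pocket protein that cyclin D kinases inactivate. It had 62.6, 40.2 and 36.5 CPM in AML WT, 40.5 and 32.9 CPM in AML HET, and 23.5, 37.3 and 32.9 CPM in AML KO mice. The extremes were AML WT replicate 1 and AML KO replicate 1, the 2 libraries that also stand apart at other genes, and the groups overlapped. A log2 fold change of −0.57 (SE 0.24, 95% interval −1.10 to −0.04, unadjusted p = 0.0367) did not pass the adjustment (adjusted p = 0.262, edgeR), and was −0.30 at its smallest and −0.71 at its largest when single mice were left out.

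**Figure D3:**
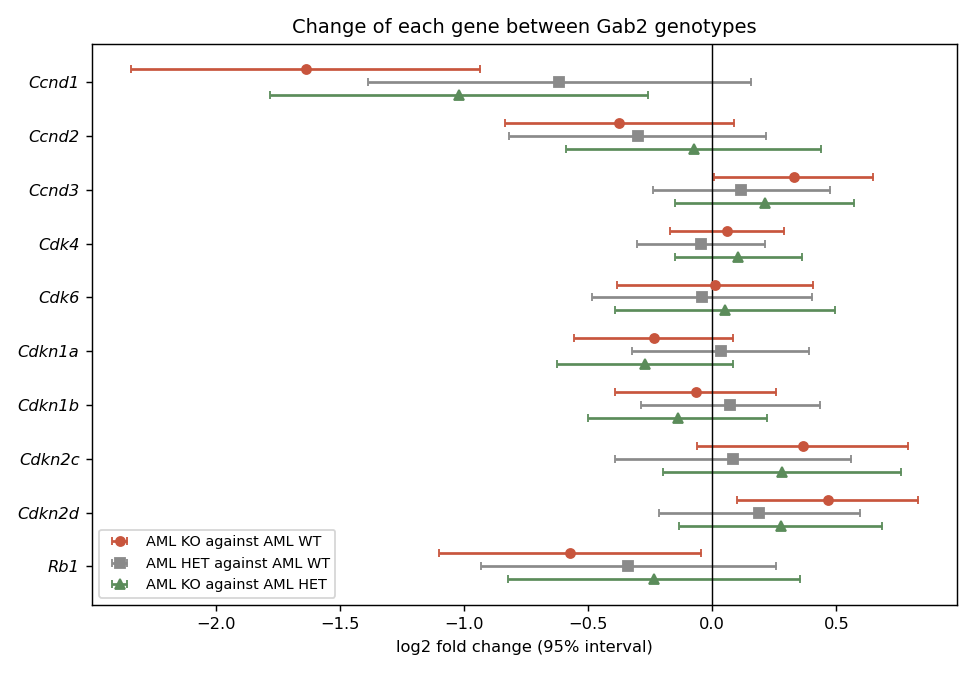
Log2 fold change of each gene (points) with its 95% interval (bars) in AML KO against AML WT (red circles), AML HET against AML WT (grey squares) and AML KO against AML HET (green triangles), from the edgeR fit. Ccnd1 is at −1.64, −0.62 and −1.02, and of the points of the other 9 genes the one farthest from 0 is that of Rb1 at −0.57.

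For 6 of the 10 genes (Ccnd1, Ccnd2, Ccnd3, Cdkn2c, Cdkn2d and Rb1) the AML HET mean lay between those of AML WT and AML KO, against 53.3% of all genes. Non-overlap was found at 1 of the 10 genes between AML HET and AML WT (Ccnd1, lower), against 18.1% of all genes, 8.61% as lower. Between AML KO and AML HET it was found at 4 (Ccnd1 and Cdkn1a lower, Cdk4 and Cdkn2d higher), against 24.2% of all genes, 11% as lower and 13.2% as higher. The gaps between the nearest AML KO and AML HET mice were small. At Cdkn2d the nearest mice had 85.7 CPM (AML KO replicate 3) and 85.2 CPM (AML HET replicate 1), closer than counting error. At Cdkn1a they had 37.6 CPM (AML KO replicate 2) and 39.2 CPM (AML HET replicate 1), with a counting error of 3.11% at its lowest count. At Cdk4 they had 335 CPM (AML KO replicate 1) and 330 CPM (AML HET replicate 2), with a counting error of 1.06% at its lowest count. At Ccnd1 the Poisson intervals of the nearest mice overlapped, as given above. The comparisons between groups share mice and are given side by side only.

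Per kilobase of exons, in each of the 8 mice Cdk4 was first (96.3 to 110.0 CPM per kilobase), Cdkn2d after it (38.8 to 68.4) and Ccnd3 the next (25.1 to 39.1), while Rb1 was next to last (3.91 to 10.4) and Ccnd1 the last (0.965 to 5.63). Cdkn2c (16.6 to 32.03), Cdk6 (15.0 to 22.9) and Cdkn1b (15.1 to 20.9) changed places with one another from mouse to mouse, as did Cdkn1a (9.50 to 13.7) and Ccnd2 (8.18 to 16.002), and in AML WT replicate 1 Ccnd2 also passed Cdkn1b, so these neighbours did not differ beyond their spread. Cdkn2d exceeded Cdkn2c, the other INK4 gene in the table, in every mouse. With the longest transcript as the length, Cdk4, Rb1 and Ccnd1 kept their places in every mouse, but Ccnd3 lay above Cdkn2d in 7 of 8 mice, so the order of these 2 genes depends on the length used. Ccnd1 had only 139 to 866 counts per library, which at the lowest count is a counting error of 8.48%. The other 9 genes had 720 counts or more in every library.

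The rest of the G1/S pathway was read from lists of genes named for their role, with calls by edgeR unless another tool is named. Of all genes 2.09% were called in AML KO against AML WT, and 17.7% had an unadjusted p under 0.05. At that share of calls, 0 calls in a short list do not set it apart from all genes. In AML KO against AML WT, DESeq2 and limma-voom called the same numbers in these lists as edgeR, except that DESeq2 also called Ube2c and Mycn (both higher) and limma-voom did not call Pmaip1. Of the cyclin E, cyclin A and CDK2 module with the CDK-activating kinase, 8 of 9 genes were in the table (Ccna1 was not) and 0 were called in AML KO against AML WT, with a median log2 fold change of 0.05 and 1 at an unadjusted p under 0.05. The smallest p values were those of Cdc25a, a phosphatase that activates CDK2, with a log2 fold change of 0.37 (SE 0.13, unadjusted p = 0.0171, adjusted p = 0.215, edgeR), and Ccne2, cyclin E2, with −0.32 (SE 0.24, adjusted p = 0.479, edgeR). Of the other INK4 and CIP/KIP genes only Cdkn1c (p57) was in the table, with 2.54 to 2.97 CPM in AML WT and 3.04 to 4.80 CPM in AML KO mice (log2 fold change 0.45, adjusted p = 0.341, edgeR). Cdkn2a and Cdkn2b were not analysed here, as they were not among its genes.

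Downstream of Rb, 0 of 18 genes of the pocket protein, E2F and DREAM list were called in AML KO against AML WT (median log2 fold change −0.07), where E2f1 had 0.44 (adjusted p = 0.225, edgeR) and E2f2 0.35 (adjusted p = 0.264, edgeR). At an unadjusted p under 0.05 there were 2 of these 18, both higher. Among the E2F target and DNA replication genes 0 of 22 were called, with a median of 0.04 and 1 at an unadjusted p under 0.05, Rpa2, a subunit of the single-strand DNA binding complex (log2 fold change 0.48, adjusted p = 0.241, edgeR). Thymidine kinase, Tk1, had a log2 fold change of 0.25 (adjusted p = 0.314, edgeR). Of the G2 and M phase genes 0 of 16 were called, with a median of 0.04. At an unadjusted p under 0.05 there were 4 (3 higher and 1 lower), against 17.7% of all genes. The smallest p values there were those of Ube2c (log2 fold change 0.50, adjusted p = 0.112, edgeR), which acts with the anaphase-promoting complex, and the mitotic kinase Cdk1 (log2 fold change 0.38, adjusted p = 0.226, edgeR). The summed level of the E2F target list was 3923 to 4350 CPM in AML WT and 4029 to 4267 CPM in AML KO mice, so the AML KO range lay within that of AML WT.

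Among 15 ubiquitin ligase and kinase genes that act on D cyclins or p27, 0 were called (median log2 fold change −0.10, 1 at an unadjusted p under 0.05), where Cks1b, the cofactor of the p27 ligase SCF-Skp2, had 0.51 (adjusted p = 0.231, edgeR) and Cul1, its scaffold, −0.29 (adjusted p = 0.283, edgeR).

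Of 13 measured p53 target genes (of 15 in the list) 1 was called, and it fell. Pmaip1, which encodes the BH3-only protein Noxa, had 24.5, 27.6 and 34.1 CPM in AML WT, 26.4 and 16.4 CPM in AML HET, and 15.8, 13.4 and 14.7 CPM in AML KO mice. All AML KO mice lay below all others, but the nearest were close, at 15.8 CPM (AML KO replicate 1) and 16.4 CPM (AML HET replicate 2). Of all genes, 9.83% had AML KO below AML WT without overlap and 11% had AML KO below AML HET. Its log2 fold change was −0.97 (SE 0.20, adjusted p = 0.0427, edgeR), while the median of the list was −0.01. In the p53 list 3 genes had an unadjusted p under 0.05 (edgeR), all lower, against 7.88% of all genes as lower.

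Of 13 transcription factors that act on the 10 genes, 1 was called between AML KO and AML WT. This was Gata1, the master regulator of erythroid and megakaryocytic cells, which rose from 0.639, 1.55 and 0.980 CPM in AML WT over 2.35 and 7.17 CPM in AML HET to 19.2, 8.08 and 9.34 CPM in AML KO mice (log2 fold change 3.54, SE 0.53, adjusted p = 0.0127, edgeR). Mycn, a MYC family gene, had 18.7, 18.6 and 14.5 CPM in AML WT, 23.6 and 19.3 CPM in AML HET, and 34.4, 25.8 and 28.4 CPM in AML KO mice. It was called in the slope fit only, where it rose by 0.39 on the log2 scale per Gab2 allele lost (adjusted p = 0.0305, edgeR). The remaining 11 factors, among them Myc, Trp53, Stat5a and Stat5b, were called in none of the comparisons.

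**Figure D4:**
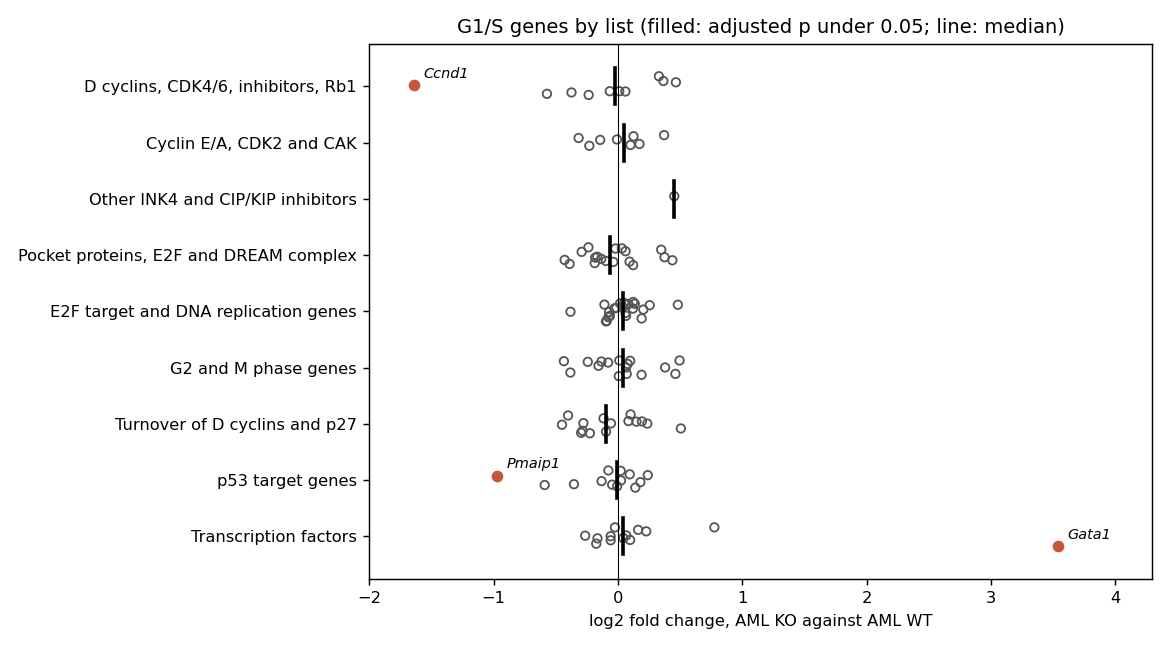
Log2 fold change in AML KO against AML WT (horizontal axis) of every measured gene in each list, with filled points for an adjusted p under 0.05 and a vertical bar at each list's median. Ccnd1, Pmaip1 and Gata1 are the filled points, and the medians of the lists with more than 1 gene lie between −0.10 and 0.05.

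Cell type markers moved with genotype in the same mice. The largest movement was in the erythroid list, where 13 of 15 genes were called higher in AML KO than in AML WT, with summed levels of 322 to 455 CPM in AML WT, 703 to 2252 CPM in AML HET and 1560.5 to 5466 CPM in AML KO mice. All 12 megakaryocyte and platelet genes were called higher (39.8 to 42.0, 62.7 to 101, and 253 to 373 CPM). Of 12 mature neutrophil genes 7 were higher (1316 to 4715, 5431 to 6099, and 10484 to 17156 CPM), of 6 measured basophil and mast cell genes 4 were higher (43.9 to 54.8, 87.7 to 98.0, and 149 to 313 CPM), and of 14 stem and progenitor genes 4 were higher (511 to 564, 517 to 618, and 676 to 766 CPM). Gata1 belongs to the lineages whose markers rose, and the part of these cells in the level of any of the 10 genes was not tested.

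Some markers of mononuclear phagocyte lineages moved in the direction of Ccnd1 and others against it. In the macrophage list of 13 genes, 8 had a positive and 5 a negative log2 fold change in AML KO against AML WT (median 0.21). Of these, Axl and Mrc1 were called lower (−1.54 and −0.87, adjusted p = 0.0156 for each, edgeR). Vcam1 and Slc40a1 were called higher (1.02 and 1.17, adjusted p = 0.0344 and 0.0163, edgeR). The summed level of this list was 425 to 521 CPM in AML WT, 356 to 398 CPM in AML HET and 273 to 416 CPM in AML KO mice. The study proposes that Gab2 induces Axl through Stat5, and the part of macrophages in its fall was not tested. In the osteoclast list, of which 5 of 8 genes were measured, the acid phosphatase Acp5 and cathepsin K (Ctsk) fell (−1.66 and −2.25, adjusted p = 0.0102 and 0.0131, edgeR) and Mmp9, which is also in the neutrophil list, rose. Its summed level was 185 to 240 CPM in AML WT, 104 to 109 CPM in AML HET and 126 to 218 CPM in AML KO mice.

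The 10 monocyte genes all had negative log2 fold changes in AML KO (median −0.30), with 0 called by edgeR, 1 by DESeq2 (Fcgr1, lower) and 3 at an unadjusted p under 0.05, and summed levels of 5102 to 5426 CPM in AML WT against 3633 to 4816 CPM in AML KO mice. For the 11 stroma and endothelium genes the median was 0.06, with 0 called by edgeR, 4 by DESeq2 (Col1a1, Col1a2 and Lpl lower, Adipoq higher), 3 higher and 3 lower at an unadjusted p under 0.05, and 827 to 1463 against 523 to 855 CPM. Of 10 measured B cell genes and 12 T and NK cell genes 0 were called by edgeR or DESeq2, with medians of 0.21 and 0.38, 0 B cell and 3 T and NK cell genes at an unadjusted p under 0.05. None of the macrophage, osteoclast, monocyte or stromal genes in the table was at 0, and the part of these cells in the fall of Ccnd1 was not tested.

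**Figure D5:**
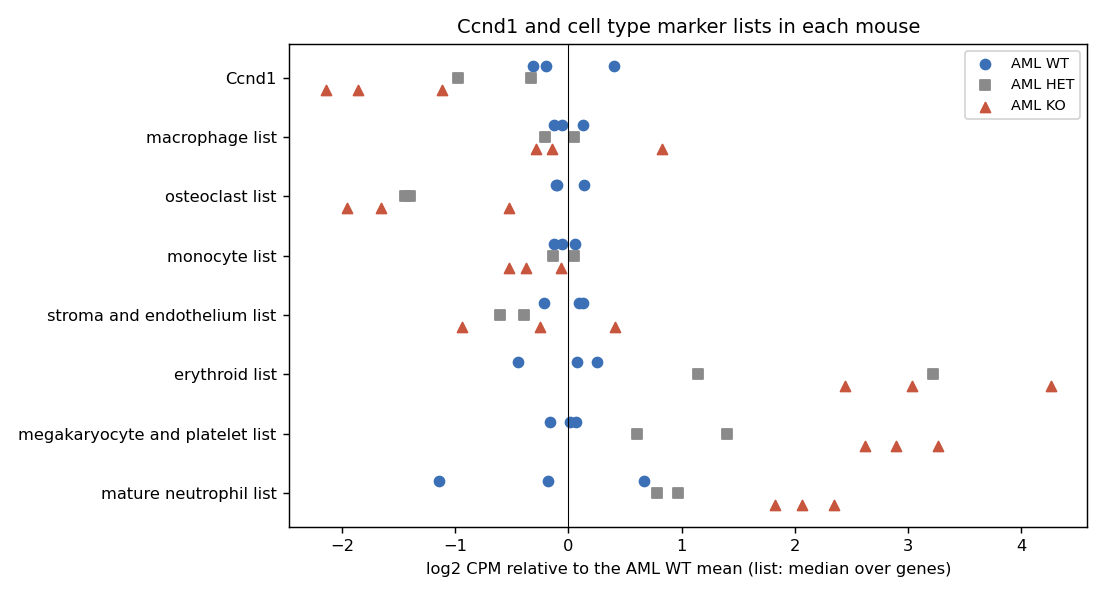
Log2 CPM relative to the AML WT mean (horizontal axis) of Ccnd1 and, for 7 marker lists, the median over the genes of a list, in each AML WT (blue circles), AML HET (grey squares) and AML KO (red triangles) mouse. Ccnd1 is at −2.14, −1.11 and −1.86 in the AML KO mice, and the osteoclast list is lower and the erythroid, megakaryocyte and neutrophil lists are higher than in AML WT.

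The genes whose pattern over the 8 mice was most like that of Ccnd1, by Pearson's r of log2 CPM among 10279 genes with a mean of at least 5 CPM, were Ust (0.979), Trim34a (0.9755), Slamf7 (0.974), Cd163 (0.973) and Pgap2 (0.972). The 8 points are the libraries that also give the fold changes, so these values describe a shared order of mice and nothing more. Trim34a had the largest change of the 5, with 13.1, 10.7 and 20.3 CPM in AML WT, 13.9 and 9.21 CPM in AML HET, and 1.96, 6.66 and 3.42 CPM in AML KO mice (log2 fold change −1.88, SE 0.42, adjusted p = 0.0580, edgeR). None of the 5 was called between AML KO and AML WT (adjusted p between 0.0555 and 0.239, edgeR). On chromosome 7, Trim34a and Pgap2 lie 6.94 Mb and 4.90 Mb from Gab2, and the other 3 genes lie on other chromosomes.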

How the data were processed

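RNA of whole BM from 8 AML mice was sequenced by the authors on an Illumina HiSeq4000, with 1 library per mouse. The authors deposited raw counts per gene, without normalization. Per the submitters' processing notes, Trimmomatic 0.36, STAR 2.5.2b and mm10 were used. The counter, its annotation, strand setting and test are not given in the sources used here. Genes with few counts are absent, as the lowest sum over the 8 mice is 106. Symbols and positions come from GENCODE M21 (GRCm38), which holds 13266 of the Ensembl identifiers and lacks 39.

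The analysis used edgeR 4.0.16 in R 4.3.3: TMM, filterByExpr (which removed none of the 13305 genes), and a robust quasi-likelihood F test over all 8 mice with genotype as the only term, or with the number of Gab2 alleles lost. Adjusted p values are Benjamini-Hochberg values over the whole table, called under 0.05. Standard errors follow from the F statistic. Single values were compared with exact permutation tests. The test was run on counts simulated from the spread fitted to these data, without outlying mice or batches. That run checks the computation and not how well the model suits these mice. The mice are taken as separate animals from their labels, and no batch is named there.

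The 10 genes and the lists were chosen with earlier results of these data known. Named were all 10 genes, list genes called in any comparison or otherwise the 2 with the smallest p, and the 5 genes most like Ccnd1. Marker genes were named after their values were seen. Log2 CPM of the marker plot used a pseudocount of 0.1 CPM, and those for likeness and for the permutation tests a prior count of 2. Alternatives were DESeq2 1.42.0, limma-voom (limma 3.58.1), other normalizations and filters, a replicate block, only the groups compared, other gene lengths and each mouse left out. Figures were drawn with Python 3.11.15 and matplotlib 3.10.9.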

Additional observations from a re-analysis of the deposited data

How the results depend on the processing

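The changes of the 10 genes in 4 comparisons were recomputed under up to 17 alternatives each, 670 values in all. Direction and side of the threshold were unchanged in 637, while 10 lost the call and 23 changed sign. All 10 lost calls were of Ccnd1. Deviations of same-numbered mice from their groups correlated at −0.51 to 0.29. With so few mice per group these values cannot show whether equal numbers mark a shared litter or day, and the labels do not say. With a replicate block Ccnd1 was at −1.62 (log2) in AML KO against AML WT (adjusted p = 0.154, edgeR) and −0.81 per allele (adjusted p = 0.0886, edgeR), and 0 of the 10 genes were called in either, against 1 and 1. With 1 mouse left out, 0 to 1 were called in both. Ccnd1 then ranged from −1.99 to −1.38 between AML KO and AML WT, called in 3 of 8 fits, and from −0.96 to −0.71 per allele, called in 5 of 8. Under the other settings it was called in every one but the block, at −1.68 to −1.62 and −0.82 to −0.81.

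The sign changes all arose when 1 mouse was left out, in genes that were not called. Between AML KO and AML WT the ranges were −0.10 to 0.22 for Cdk6 and −0.13 to 0.0072 for Cdkn1b. Between AML HET and AML WT they were −0.074 to 0.29 for Ccnd3, −0.14 to 0.18 for Cdk6, −0.081 to 0.18 for Cdkn1a, −0.16 to 0.27 for Cdkn1b and −0.038 to 0.19 for Cdkn2c. Between AML KO and AML HET they were −0.18 to 0.042 for Ccnd2, −0.027 to 0.15 for Cdk6 and −0.34 to 0.090 for Cdkn1b. Per allele they were −0.043 to 0.11 for Cdk6 and −0.072 to 0.00033 for Cdkn1b.

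Over all genes, calls between AML KO and AML WT were 278, 730 with DESeq2, 19 with the replicate block and 40 (without AML WT replicate 2) to 370 (without AML KO replicate 2) with 1 mouse left out. Between AML HET and AML WT they were 3, 59 with DESeq2, 1 with limma-voom, 0 with the block, 5 with only the groups compared and 1 to 5 with 1 mouse left out. Between AML KO and AML HET they were 0, 77 with DESeq2, 3 with only the groups compared and 0 to 4. Per allele they were 351, 865 with DESeq2, 125 with the block and 137 to 525. With the longest transcript as gene length, the share of Ccnd1 was 6.17%, 4.14% and 1.79% in AML WT, AML HET and AML KO BM, that of Ccnd2 16.5% in AML HET and 14.2% in AML KO, that of Ccnd3 73.6%, 79.3% and 84.0% in AML WT, AML HET and AML KO, and that of Cdk6 11.9% in AML HET and 11.5% in AML KO. Cdkn2d then lay above Ccnd3 in 1 mouse in place of 8, an alternative chosen after seeing the data. Spread between the mice limits the precision more than depth does, also for Ccnd1, where a counting error of at most 8.48% stands against a biological coefficient of variation of 27.1%.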
